A study of Oryza sativa Japonica Group with 4 samples.

Results

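The heat shock proteins and heat stress transcription factors of rice were described in anthers of the sterile mutant sstl-s and of its fertile counterpart SSTL-F. Members were all genes whose deposited name contains, in any case, "heat shock" or "heat stress transcription factor", which gave 59 of 35825 genes. The rule itself uses names only. They comprise 24 factors, of which 12 belong to class A, 8 to class B and 4 to class C. The other 35 are proteins, namely 13 small heat shock proteins (named below 35 kDa), 10 of the 70 kDa family, 6 of the 90 kDa family and 6 others that include HSP101. These classes were read from the names alone. Proteins named by another size, such as the 71.1, 74.8 and 80.2 KDA CLASS I proteins, stand among the others whatever their family. Statements on a family below thus cover only the genes so named.

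Heat shock proteins are chaperones: small ones hold unfolded proteins so that these do not aggregate, HSP70 proteins fold them together with J-domain partners, HSP90 proteins mature kinases, receptors and other clients, and HSP101 pulls proteins out of aggregates. Heat stress transcription factors bind heat shock elements in the promoters of these genes. Class A factors carry an activation motif, whereas class B and class C factors lack it and several class B factors repress transcription in Arabidopsis. Anthers express many chaperones during normal development, and the pollen and tapetum of cereals are known to be sensitive to heat.

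The study set sterile against fertile segregants in the progeny of a semi-sterile plant from T-DNA line M0037841 of the japonica variety Tainung 67. Whole anthers were taken at late pollen mitosis (LpM) and at the young microspore stage (YM), which gave 4 libraries: sstl-s at LpM, SSTL-F at LpM, sstl-s at YM and SSTL-F at YM. The sstl-s plants had sterile panicles, the SSTL-F plants, labelled control, had fertile ones, and in the study's hands the sterility did not follow the T-DNA. All plants shared 1 growth chamber regime, and the labels name no heat treatment and do not say how many plants went into a library.

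Each group held 1 library, so no difference below has a replicate check or a p-value. Intervals are exact 95% intervals from the counts and cover counting error only, since the reads carry no molecular identifiers. Totals lay between 10161675 and 11559430 counts a library. Genes were called expressed where any library had 10 or more counts, which held for 24543 genes and for 47 members. Of these members, 2 reached 10 counts in 1 library only, HSFC2A in SSTL-F at LpM and HSFB4A in sstl-s at YM. Such a filter favours a high value in the library through which a gene passes. The anther origin showed in 12 tapetum and young anther genes found of 13 listed, all detected in every library, which summed to 16444 CPM in sstl-s and 19602 CPM in SSTL-F at LpM and to 7912 CPM in sstl-s and 15499 CPM in SSTL-F at YM. Single genes went both ways. At LpM the log2 ratio of sstl-s over SSTL-F was above 0 for bHLH142 (1.28), UDT1 (0.73), TDR (0.06) and DPW (0.05). It was below 0 for all others found, and at YM it was above 0 for UDT1 (0.23) only. A pair of late pollen genes summed to 50.6 CPM in sstl-s and 196 CPM in SSTL-F at LpM, and to 9.43 CPM in sstl-s and 86.3 CPM in SSTL-F at YM. Each was lower in sstl-s at both stages, but the pair went opposite ways between stages. In SSTL-F, Os09g0388400 had 34.5 CPM at LpM and 77.5 CPM at YM, and Os09g0381400 had 162 CPM at LpM and 8.86 CPM at YM. The study's sections showed few released microspores in sstl-s. The part of cell composition in the results below was not tested, and in whole anthers fewer cells of a type and less RNA per cell cannot be told apart.

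The most abundant member in every library was an HSP70 cognate gene whose long name ends in Mediator 37_8. Cognates are the HSP70s that cells make without heat, and Mediator 37 names HSP70 proteins that copurify with the Mediator complex in Arabidopsis. Its length-scaled level was 760 RPKM in sstl-s and 550 RPKM in SSTL-F at LpM, and 817 RPKM in sstl-s and 741 RPKM in SSTL-F at YM. Among all genes it ranked 30 in sstl-s and 46 in SSTL-F at LpM, and 14 in sstl-s and 22 in SSTL-F at YM. This single gene took between 33.9% and 39.6% of all counts of the members.

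Next in abundance came the 90 kDa family, with HSP82B (HEAT SHOCK PROTEIN 82B) at 287 RPKM in sstl-s and 149 RPKM in SSTL-F at LpM, and at 286 RPKM in sstl-s and 225 RPKM in SSTL-F at YM. The gene named RICE 90KDA HEAT SHOCK PROTEIN stood at 203 RPKM in sstl-s and 90.9 RPKM in SSTL-F at LpM, and at 220 RPKM in sstl-s and 153 RPKM in SSTL-F at YM. Another HSP70 gene, ending in Mediator 37_4, had 138 RPKM in sstl-s and 76.6 RPKM in SSTL-F at LpM, and 121 RPKM in sstl-s and 84.4 RPKM in SSTL-F at YM. These 3 genes thus all showed their lowest level in SSTL-F at LpM, also on counts normalized between libraries. RPKM serves here to set genes side by side within a library. On log2(RPKM + 1) the median ratio of sstl-s over SSTL-F over all genes was 0.19 at LpM and 0.11 at YM. On normalized counts HSP82B was 1.64-fold that of SSTL-F at LpM, and Mediator 37_8 was 0.976-fold at YM.

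The factors lay below the most abundant chaperones. The highest factor was HSFA1, whose class A1 relatives act as master regulators of the heat response in tomato and Arabidopsis, with 44.3 RPKM in sstl-s and 33.8 RPKM in SSTL-F at LpM, and 38.0 RPKM in sstl-s and 32.7 RPKM in SSTL-F at YM. Among small proteins the highest mean level belonged to the 18.0 KDA CLASS II HEAT SHOCK PROTEIN, with 21.4 RPKM in sstl-s and 9.31 RPKM in SSTL-F at LpM, and 58.8 RPKM in sstl-s and 23.9 RPKM in SSTL-F at YM. The 12 members that did not pass the filter had between 0 and 7 counts in every library. They were HSFA2A, HSFA6, HSFC1A, the 3 proteins named 16.9 KDA CLASS I, the 24.1 KDA CLASS I and 26 KDA proteins, 3 further copies of HSP70 and 1 of HSP90.

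**Figure D1:**
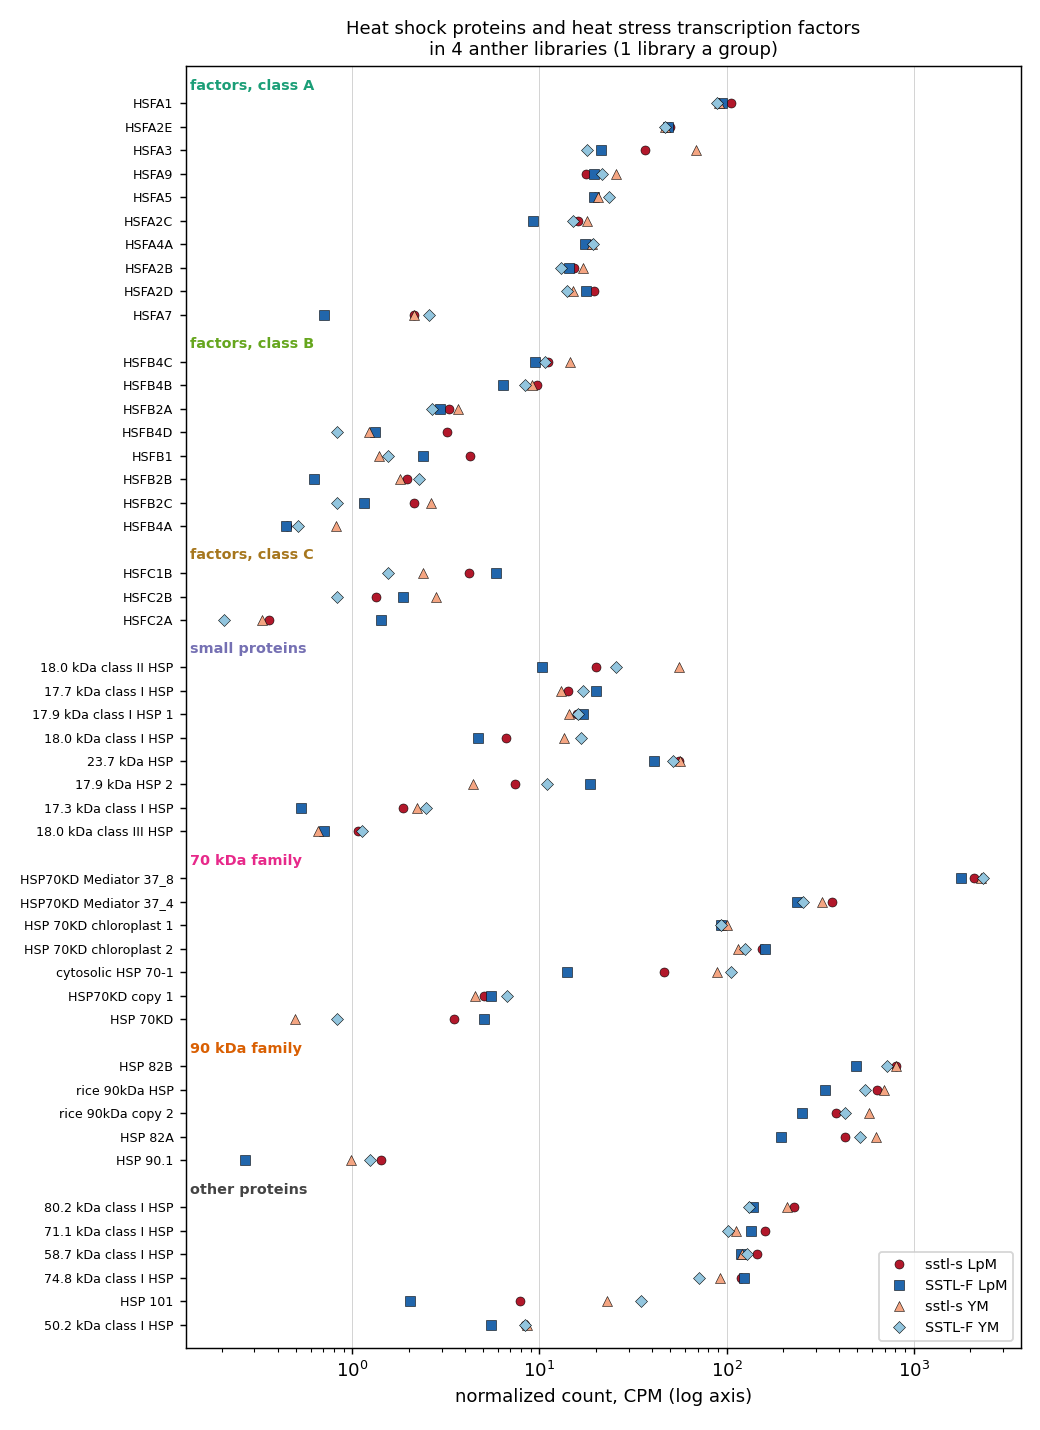
Normalized count (CPM, log axis) of the 47 expressed members in each of the 4 libraries, grouped by class and ordered within a class by mean RPKM; each point is 1 library. HSP101, cytosolic HSP70-1 and the 90 kDa genes have their lowest point in SSTL-F at LpM, while HSFA1 and HSFA2E stay close together in all 4 libraries.

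Over all 59 members, the counts made up 0.626% (0.621 to 0.631) of the library in sstl-s and 0.443% (0.439 to 0.447) in SSTL-F at LpM. At YM the share was 0.709% (0.705 to 0.714) in sstl-s and 0.578% (0.573 to 0.583) in SSTL-F. The class with the widest gap among the abundant ones was the 90 kDa family, with 0.229% of counts in sstl-s and 0.125% in SSTL-F at LpM, and 0.287% in sstl-s and 0.211% in SSTL-F at YM. On counts normalized by the trimmed mean of M values (TMM), its sum was 1.77-fold that of SSTL-F at LpM and 1.23-fold at YM. The 70 kDa sum was 1.20-fold at LpM and 0.996-fold at YM, although its plain share at YM was larger in sstl-s (0.307%) than in SSTL-F (0.279%).

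For the factors, the sum of class A was 1.15-fold that of SSTL-F at LpM and 1.23-fold at YM, and that of class B was 1.46-fold at LpM and 1.27-fold at YM. HSFA3 alone gave 835 of the 3966 class A counts in sstl-s and 175 of 2560 in SSTL-F at YM. The median log2 ratio of the 10 expressed class A factors at YM was 0.07. Class C differed in that its sum was 0.638-fold that of SSTL-F at LpM and 2.13-fold at YM. It rested on few reads, with 66 counts in sstl-s and 104 in SSTL-F at LpM, and 67 in sstl-s and 25 in SSTL-F at YM. The sum of the small proteins was 1.09-fold at LpM and 1.13-fold at YM, which hides members that lay on both sides. The 23.7 KDA HEAT SHOCK PROTEIN alone gave 624 of 1397 counts in sstl-s and 463 of 1287 in SSTL-F at LpM. Its gene model, judged from counts over RPKM, was 4.43 times the median of the small proteins, the longest of all expressed members. Without it, an alternative chosen after seeing the data, the sum was 0.943-fold at LpM and 1.15-fold at YM. With or without this gene, the sum at LpM thus had no settled direction.

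**Figure D2:**
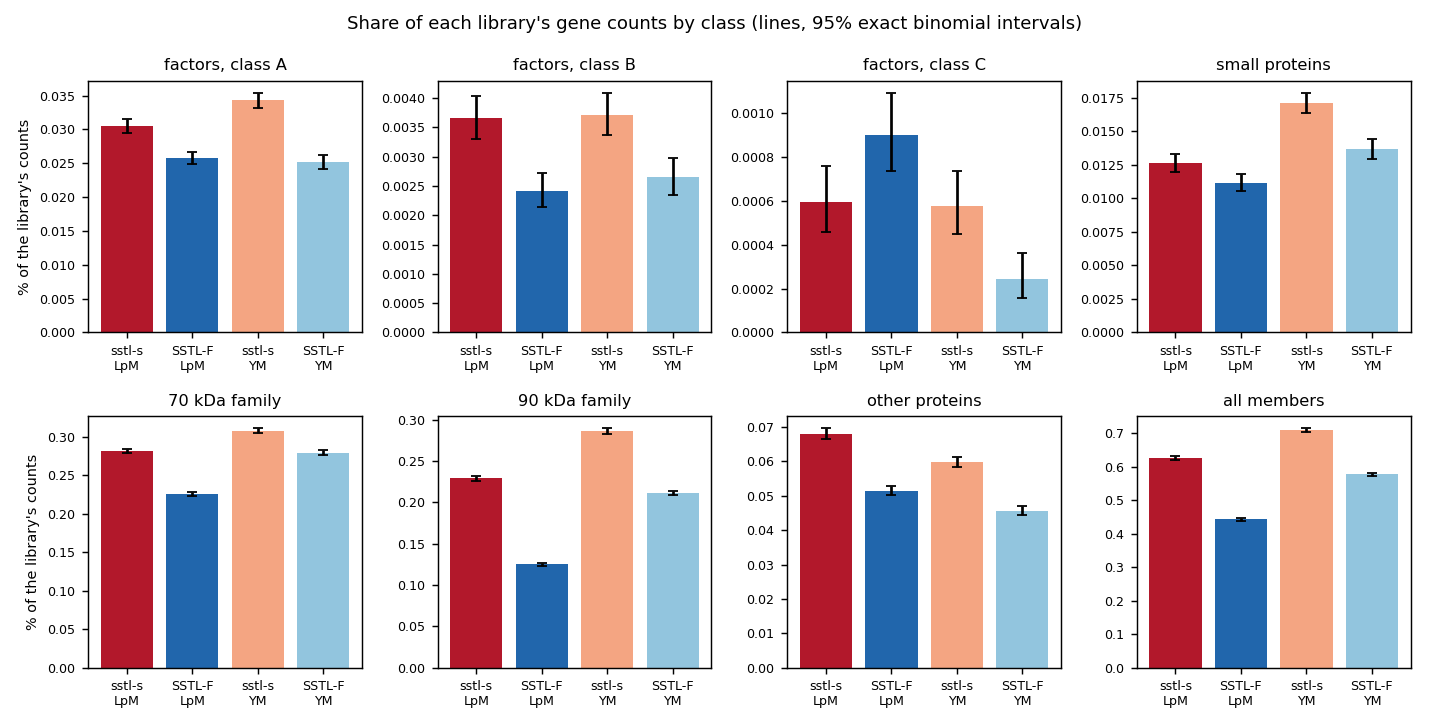
Share of each library's gene counts (%) taken by each class and by all members; bars are single libraries and lines are 95% exact binomial intervals. The 90 kDa family had 0.125% of counts in SSTL-F at LpM, less than in the other 3 libraries, and class C factors had most counts in SSTL-F at LpM.

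At LpM the question is how anthers of the sterile mutant differ from fertile ones, in which pollen has formed. HSP101, cytosolic HSP70-1 and HSP82A stood 2-fold or more above SSTL-F in the sstl-s anthers, together with 5 members of low count. In all, 8 of the 47 expressed members passed 2-fold upwards in sstl-s, beside 4.45% of all expressed genes. Another 2 were at least 2-fold lower, beside 6.58% of all genes. The median log2 ratio was 0.27 for the members and 0.01 for all genes. Of the members, 36 lay above 0, beside 51.4% of all genes. The counting interval lay above 0 for 24 members, beside 20.8% of all genes, and below 0 for 3, beside 22.2% of all genes.

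HSP101, the disaggregase of the ClpB type, had 7.84 CPM in sstl-s and 2.04 CPM in SSTL-F at LpM (88 and 23 counts). At YM it had 23.1 CPM in sstl-s and 34.8 CPM in SSTL-F. Its level in sstl-s was thus above SSTL-F at LpM only, with a log2 ratio of 1.90 (1.27 to 2.67) at LpM and of -0.59 (-0.82 to -0.36) at YM. On log2(RPKM + 1), which understates ratios of low genes, the LpM value was 1.08. By the IDs of neighbouring rows, the gene lies on chromosome 5 between Os05g0519300 and Os05g0519800.

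Cytosolic HSP70-1 (CYTOSOLIC HEAT SHOCK PROTEIN 70-1) belongs to the general folding HSP70s of the cytosol. It had 46.4 CPM in sstl-s and 14.1 CPM in SSTL-F at LpM, and 88.5 CPM in sstl-s and 105 CPM in SSTL-F at YM. The log2 ratio was 1.71 (1.46 to 1.99) at LpM and -0.25 (-0.38 to -0.13) at YM, so that the order of the genotypes was the same as for HSP101 at both stages. The 2 abundant Mediator 37 genes of the same family differed less at LpM, with log2 ratios of 0.62 (0.55 to 0.69) for Mediator 37_4 and 0.23 (0.21 to 0.26) for Mediator 37_8. The chloroplast HSP70s, which fold proteins in the plastid stroma, had log2 ratios of 0.02 (-0.10 to 0.15) for CHLOROPLAST PROTEIN 1 and -0.04 (-0.14 to 0.05) for CHLOROPLAST PROTEIN 2.

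All 5 expressed genes placed in the 90 kDa family by name had their counting interval above 0 at LpM, beside 20.8% of all genes. HSP82A (HEAT SHOCK PROTEIN 82A) had 431 CPM in sstl-s and 196 CPM in SSTL-F at LpM, and 631 CPM in sstl-s and 516 CPM in SSTL-F at YM. It was 2.20-fold higher in sstl-s at LpM, with a log2 ratio of 1.14 (1.06 to 1.21), and had a log2 ratio of 0.29 (0.24 to 0.34) at YM. The RICE 90KDA gene had a log2 ratio of 0.93 (0.87 to 0.99) at LpM and 0.35 (0.30 to 0.40) at YM. For HSP82B these were 0.71 (0.66 to 0.76) at LpM and 0.17 (0.13 to 0.22) at YM. The low expressed Heat shock protein 90.1 had 16 counts in sstl-s and 3 in SSTL-F at LpM, a log2 ratio of 2.09 with an interval of 0.62 to 4.84. The 90 kDa genes so named thus shared a direction at LpM and differed in size.

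In the group of other proteins, the 80.2 KDA CLASS I HEAT SHOCK PROTEIN had 230 CPM in sstl-s and 138 CPM in SSTL-F at LpM, and 209 CPM in sstl-s and 133 CPM in SSTL-F at YM. Its difference was of similar size at both stages, with log2 ratios of 0.73 (0.64 to 0.82) at LpM and 0.66 (0.56 to 0.76) at YM. The 71.1 KDA CLASS I HEAT SHOCK PROTEIN had 161 CPM in sstl-s and 135 CPM in SSTL-F at LpM, and 113 CPM in sstl-s and 102 CPM in SSTL-F at YM. The other 3 of this group, at 50.2, 58.7 and 74.8 kDa, had log2 ratios between -0.05 and 0.60 at LpM.

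Small proteins differed in both directions. The 17.9 KDA HEAT SHOCK PROTEIN 2 was the only member with at least 100 counts that was 2-fold lower in sstl-s, and it was so at both stages. It had 7.40 CPM in sstl-s and 18.6 CPM in SSTL-F at LpM, and 4.43 CPM in sstl-s and 10.9 CPM in SSTL-F at YM. The log2 ratios were -1.32 (-1.72 to -0.96) at LpM and -1.29 (-1.80 to -0.82) at YM. In the deposited order it opens a run of 4 small heat shock genes on chromosome 1, and its 3 neighbours were among the members below the filter.

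The 17.7 KDA CLASS I HEAT SHOCK PROTEIN had 14.3 CPM in sstl-s and 20.03 CPM in SSTL-F at LpM, and 13.0 CPM in sstl-s and 17.2 CPM in SSTL-F at YM. It was lower in sstl-s by less than 2-fold, with log2 ratios of -0.49 (-0.79 to -0.19) at LpM and -0.40 (-0.72 to -0.08) at YM. On the other side stood the 17.3 KDA CLASS I HEAT SHOCK PROTEIN, with 21 counts in sstl-s and 6 in SSTL-F at LpM and a log2 ratio of 1.66 (0.46 to 3.41). Both lie in a run of 4 expressed class I genes on chromosome 3. Such copies can be alike in sequence, and how reads shared between copies were counted is not given in the sources used here, so values of single genes within a run are uncertain.

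Among the factors at LpM, 21 were expressed and none with at least 100 counts differed 2-fold. HSFA2C and HSFB4B, which regulate the HSP101 gene in rice, had log2 ratios of 0.79 (0.44 to 1.16) and 0.60 (0.16 to 1.06). In level, HSFA2C had 16.0 CPM in sstl-s and 9.22 CPM in SSTL-F at LpM, and 17.95 CPM in sstl-s and 15.04 CPM in SSTL-F at YM. HSFB4B had 9.71 CPM in sstl-s and 6.38 CPM in SSTL-F at LpM, and 9.10 CPM in sstl-s and 8.34 CPM in SSTL-F at YM. Both factors were therefore lowest in SSTL-F at LpM, as were HSP101, 24 of the 47 members in all and 31.8% of all genes. Their range was much narrower than that of HSP101. At YM HSP101 was lower in sstl-s (-0.59), while HSFA2C (0.25, interval -0.05 to 0.57) and HSFB4B (0.12, interval -0.30 to 0.56) lay above 0. A link between these genes was not tested.

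All 8 class B factors had a log2 ratio above 0 at LpM, beside 51.4% of all genes. For HSFB4A, with 5 counts in either genotype, it was 0.01 (-2.11 to 2.13), which has no settled direction. The counting interval lay above 0 for 4 of the 8, beside 20.8% of all genes. HSFB2B (1.53, interval 0.38 to 3.13) and HSFB4D (1.22, interval 0.37 to 2.25) were at least 2-fold higher. HSFB4C had 11.05 CPM in sstl-s and 9.48 CPM in SSTL-F at LpM, and 14.6 CPM in sstl-s and 10.7 CPM in SSTL-F at YM. All 3 expressed class C factors lay below 0 at LpM, as did 11910 of all 24543 expressed genes. Among them was HSFC2A with 4 counts in sstl-s and 16 in SSTL-F, a log2 ratio of -1.76 (-4.03 to -0.36). HSFC2A passed the filter through SSTL-F at LpM alone, which favours such a ratio. HSFC1B, the class C factor with most reads, had 4.19 CPM in sstl-s and 5.85 CPM in SSTL-F at LpM, and 2.38 CPM in sstl-s and 1.55 CPM in SSTL-F at YM.

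**Figure D3:**
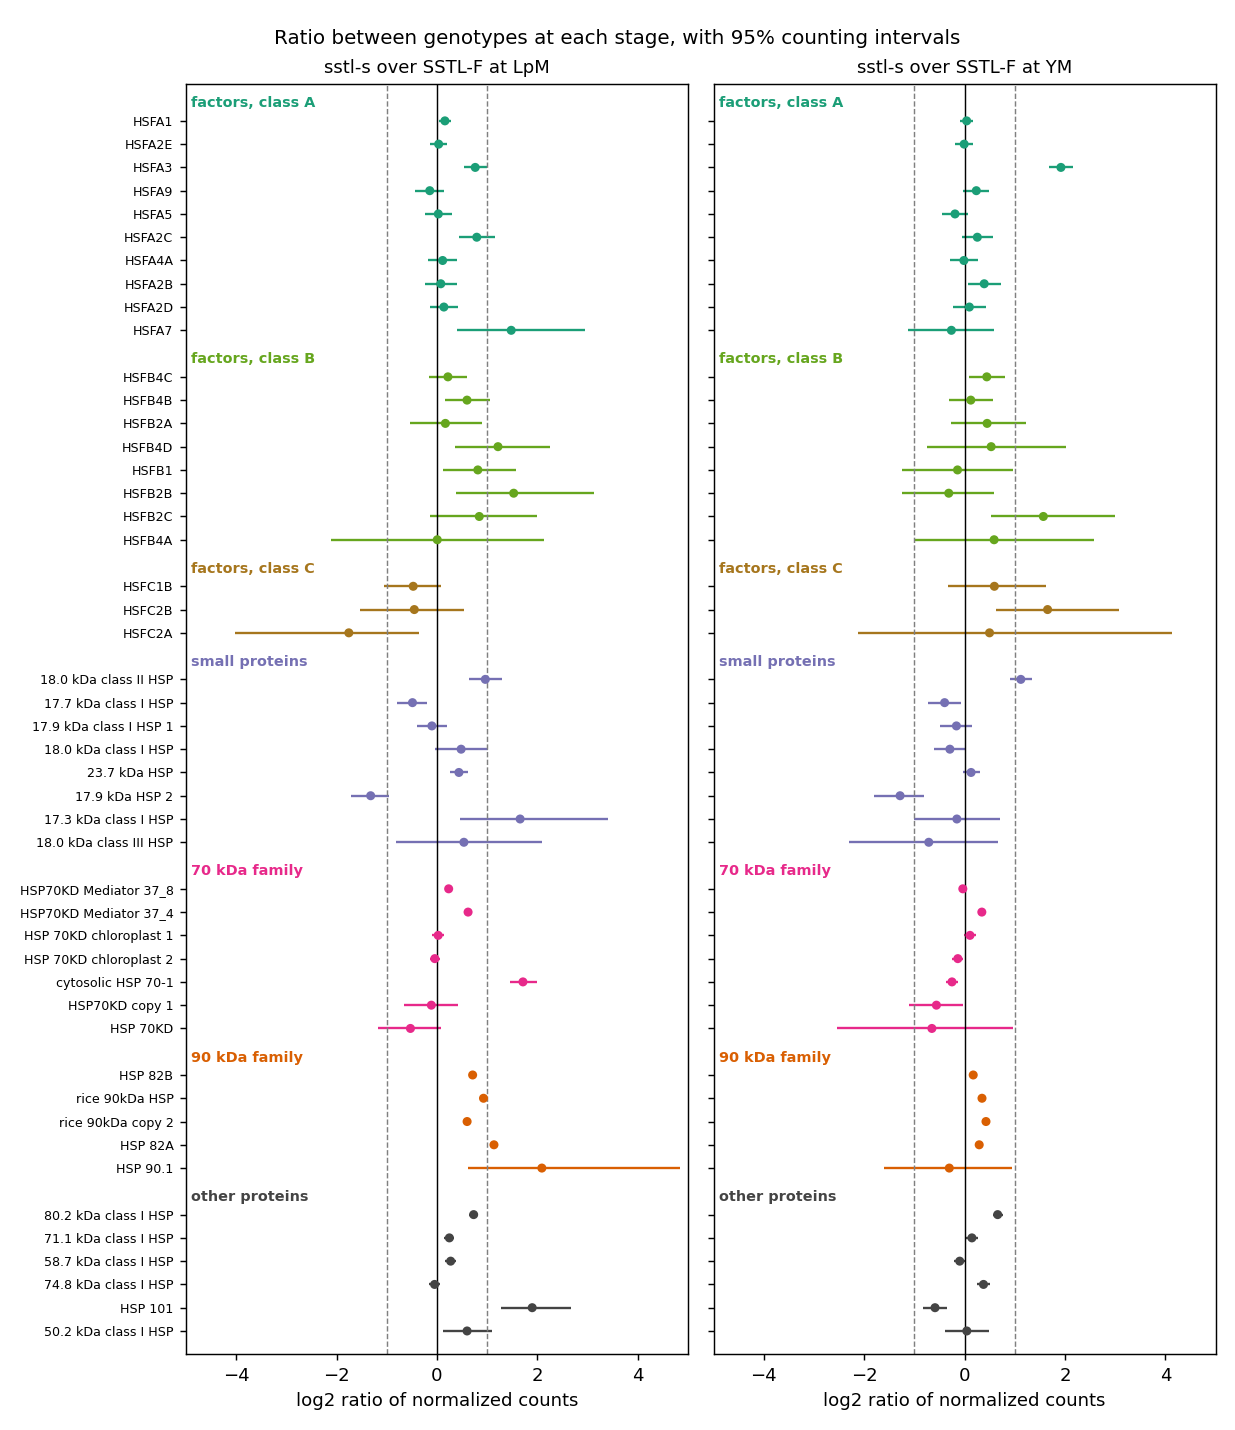
Log2 ratio of normalized counts, sstl-s over SSTL-F, at LpM (left) and at YM (right) for the 47 expressed members; points are ratios of 1 library over 1 library, lines are 95% counting intervals, and dashed lines mark 2-fold. All 5 expressed genes placed in the 90 kDa family by name lie right of 0 at LpM, and HSFA3 has the farthest point to the right at YM.

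At YM the same comparison asks about anthers at the young microspore stage, at which the study saw few released microspores in sstl-s. HSFA3 and the 18.0 KDA CLASS II HEAT SHOCK PROTEIN were the members of at least 100 counts that stood 2-fold higher in sstl-s. In all, 4 of 47 members were at least 2-fold higher, beside 8.21% of all genes, and 1 was lower, beside 4.24% of all genes. The other 2 that were higher were HSFC2B, with 34 counts in sstl-s and 8 in SSTL-F, and HSFB2C, with 32 counts in sstl-s and 8 in SSTL-F. The median log2 ratio was 0.11 for the members and -0.03 for all genes, and 27 members lay above 0, beside 46.6% of all genes, and 20 below. With library size as the only scaling, the median of all genes at YM moved to 0.11, and on deposited RPKM it was 0.19 at LpM and 0.11 at YM, so ratios within that range of 0 have no settled direction.

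HSFA3 acts downstream of DREB2A, a factor of drought and heat responses, in Arabidopsis. It had 36.5 CPM in sstl-s and 21.4 CPM in SSTL-F at LpM, and 68.4 CPM in sstl-s and 18.03 CPM in SSTL-F at YM. It was 3.78-fold higher in sstl-s at YM, with a log2 ratio of 1.92 (1.69 to 2.17), and had a log2 ratio of 0.76 (0.53 to 1.0) at LpM. Both sstl-s libraries thus lay above both SSTL-F libraries for this gene. The same held for HSFA2B and HSFA2C, over a narrower range. It also held for members of other classes, among them HSFB4C, HSP82B and the 80.2 KDA CLASS I protein. For HSFA2B the log2 ratio at LpM was 0.08 (-0.24 to 0.40), which has no settled direction. The share of all genes with this order was not counted.

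The 18.0 KDA CLASS II HEAT SHOCK PROTEIN, of a cytosolic class of small chaperones, had 20.1 CPM in sstl-s and 10.3 CPM in SSTL-F at LpM, and 55.7 CPM in sstl-s and 25.5 CPM in SSTL-F at YM. It was 1.95-fold higher in sstl-s at LpM, just under the 2-fold line, and 2.17-fold higher at YM. The log2 ratios were 0.96 (0.64 to 1.31) at LpM and 1.12 (0.91 to 1.34) at YM. Its order by genotype was therefore kept at both stages, unlike that of HSP101 and cytosolic HSP70-1.

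The remaining class A factors with at least 100 counts differed little between genotypes. HSFA1 had log2 ratios of 0.16 (0.04 to 0.28) at LpM and 0.04 (-0.09 to 0.17) at YM. HSFA2E had 49.6 CPM in sstl-s and 48.5 CPM in SSTL-F at LpM, and 46.8 CPM in sstl-s and 47.1 CPM in SSTL-F at YM, the narrowest spread of these factors. HSFA4A, whose rice and wheat genes are known for cadmium tolerance, had 18.9 CPM in sstl-s and 17.5 CPM in SSTL-F at LpM, and 19.2 CPM in sstl-s and 19.4 CPM in SSTL-F at YM.

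HSFA5, which inhibits HSFA4 in Arabidopsis, had 19.9 CPM in sstl-s and 19.5 CPM in SSTL-F at LpM, and 20.7 CPM in sstl-s and 23.6 CPM in SSTL-F at YM. HSFA9, a seed factor in sunflower and Arabidopsis, had 17.6 CPM in sstl-s and 19.5 CPM in SSTL-F at LpM, and 25.6 CPM in sstl-s and 21.7 CPM in SSTL-F at YM. For HSFA2B and HSFA2D the log2 ratios lay between 0.08 and 0.39 over both stages. The counting interval included 0 at both stages for HSFA2D, HSFA2E, HSFA4A, HSFA5 and HSFA9.

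Between stages, HSP101 and the 18.0 kDa class I and class II proteins had at LpM a level 2-fold or more under that of YM in sstl-s and in SSTL-F alike, as did cytosolic HSP70-1 and HSP82A in SSTL-F. In sstl-s, 4 of 47 members were at least 2-fold lower at LpM, beside 4.51% of all genes, and 3 were higher, beside 7.39% of all genes. In SSTL-F, 9 members were at least 2-fold lower at LpM, beside 4.95% of all genes, and 4 were higher, beside 12.0% of all genes. The median log2 ratio, LpM over YM, was -0.01 in sstl-s and -0.15 in SSTL-F, against 0.00 in sstl-s and -0.02 in SSTL-F for all genes.

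HSP101 was 2.93-fold lower at LpM than at YM in sstl-s and 16.4-fold lower in SSTL-F. The log2 ratio was -1.55 (-1.92 to -1.21) in sstl-s and -4.04 (-4.77 to -3.48) in SSTL-F, the last of which was -2.65 on log2(RPKM + 1). Cytosolic HSP70-1 was 1.90-fold lower in sstl-s and 7.44-fold lower in SSTL-F, with log2 ratios of -0.93 (-1.08 to -0.78) in sstl-s and -2.89 (-3.15 to -2.66) in SSTL-F. HSP82A was 1.46-fold lower in sstl-s and 2.63-fold lower in SSTL-F. For these 3 chaperones the drop was smaller in sstl-s, as in 90.6% of the 1214 genes that were 2-fold lower at LpM in SSTL-F. The difference between genotypes was not tested, since each rests on single libraries.

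Small proteins gave another picture. The 18.0-KD CLASS I HEAT SHOCK PROTEIN had 6.60 CPM in sstl-s and 4.70 CPM in SSTL-F at LpM, and 13.6 CPM in sstl-s and 16.7 CPM in SSTL-F at YM, and was 2.05-fold lower at LpM in sstl-s and 3.50-fold lower in SSTL-F. For the 18.0 KDA CLASS II protein the drop was 2.76-fold in sstl-s and 2.47-fold in SSTL-F. These 2 and HSP101 were the members that were 2-fold lower at LpM in both genotypes, but the class I protein in sstl-s lay at the line, with a log2 ratio of -1.03 that became -0.95 on RPKM. The 17.9 KDA HEAT SHOCK PROTEIN 2 was instead higher at LpM by less than 2-fold, with log2 ratios of 0.73 (0.23 to 1.26) in sstl-s and 0.76 (0.43 to 1.12) in SSTL-F.

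Of the 9 members that were 2-fold lower at LpM in SSTL-F, 3 were so in sstl-s, a share near the 32.1% of the 1214 such genes overall. In 6 of the 9 the ratio in sstl-s was below 0, beside 82% of the 1214 genes, and in 8 the drop in sstl-s was smaller than in SSTL-F, beside 90.6%. All 9 had a higher normalized count in sstl-s than in SSTL-F at LpM, beside 88.9%. In 8 of the 9 the sstl-s LpM level lay between the SSTL-F levels at LpM and at YM, beside 76.4%, the exception being Heat shock protein 90.1. The 9 and the 1214 were both chosen by their drop in SSTL-F, so these orders are descriptions only, and most of the genes chosen in this way showed them too.

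**Figure D4:**
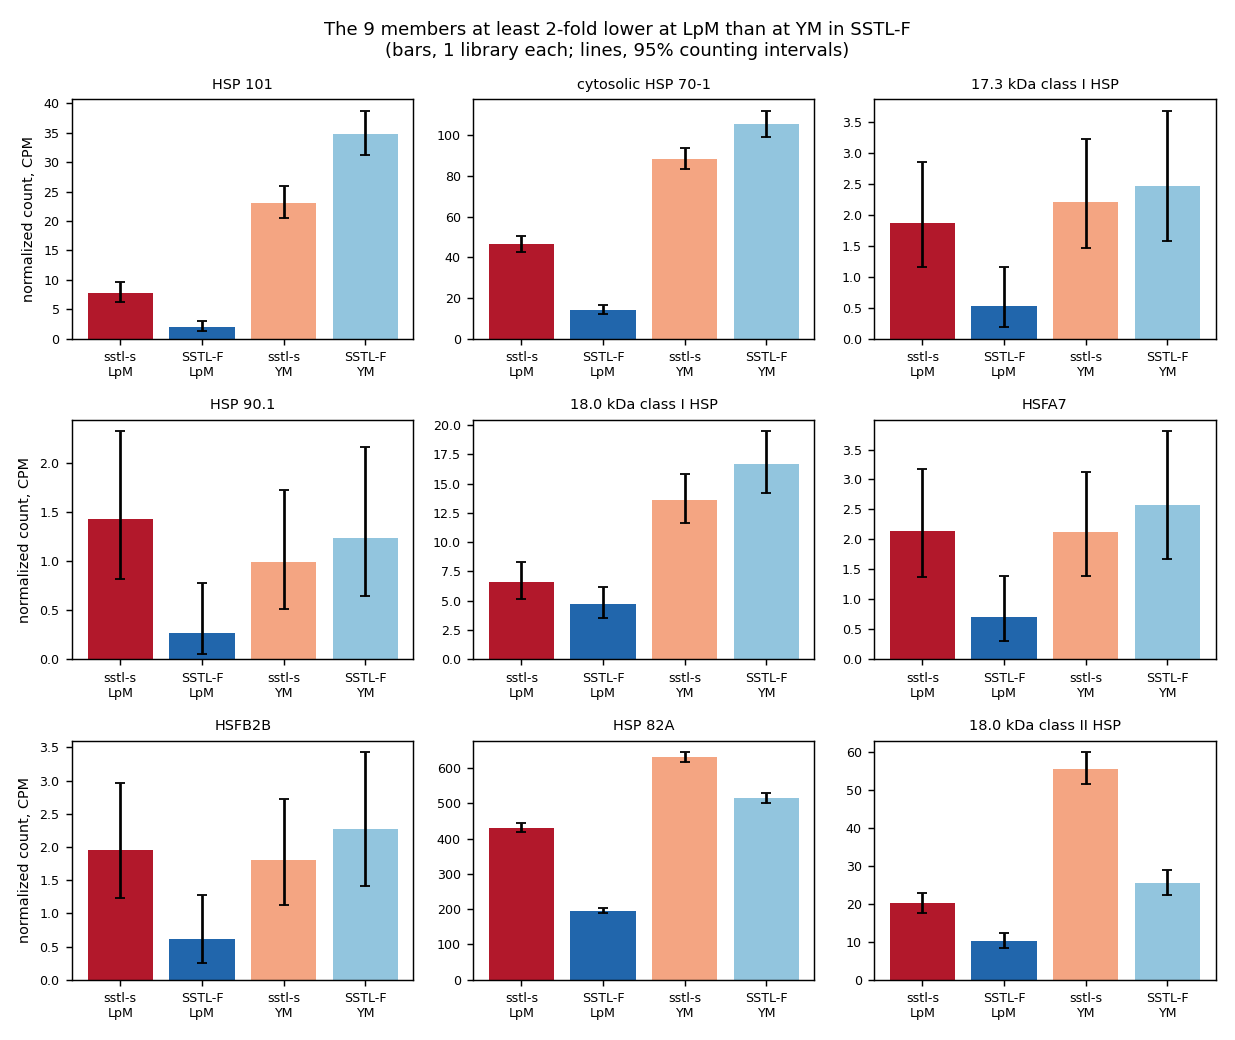
Normalized count (CPM) in each library for the 9 members that were at least 2-fold lower at LpM than at YM in SSTL-F; bars are single libraries and lines are 95% counting intervals (exact Poisson). The SSTL-F LpM bar is the lowest in every panel, and in 8 panels the sstl-s LpM bar lies between the SSTL-F bars.

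The library with the lowest level was sstl-s at LpM for 1 of the 47 members (HSFA9), where it was so for 17.5% of all genes. It was SSTL-F at LpM for 24 members, beside 31.8% of all genes. It was sstl-s at YM for 9 members, beside 27.0% of all genes, and SSTL-F at YM for 13, beside 23.5% of all genes. The highest level was found in sstl-s at LpM for 11 members, beside 18.1% of all genes, and in SSTL-F at LpM for 8, beside 29.7%. It was found in sstl-s at YM for 17 members, beside 24.5% of all genes, and in SSTL-F at YM for 11, beside 27.7%.

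Members that were higher at LpM were fewer and mostly of low count. The gene named only HEAT SHOCK PROTEIN 70KD had 39 counts in sstl-s and 57 in SSTL-F at LpM, and 6 in sstl-s and 8 in SSTL-F at YM. It was 6.13-fold higher at LpM in sstl-s and 5.62-fold higher in SSTL-F, the only member past 2-fold upwards in both genotypes. This gene passed the filter through its LpM libraries only, which favours a higher level at LpM in both genotypes. The 3 expressed class C factors had log2 ratios, LpM over YM, between -1.01 and 0.79 in sstl-s, against 1.09 and 2.35 in SSTL-F. In SSTL-F all 3 were at least 2-fold higher at LpM, beside 12.0% of all genes. Of these, HSFC2A passed the filter through SSTL-F at LpM alone, which favours such a ratio. HSFB1 (1.56, interval 0.79 to 2.51) and HSFB4D (1.32, interval 0.48 to 2.36) passed 2-fold upwards at LpM in sstl-s.

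HSFA3 was the factor of at least 100 counts with the clearest stage difference, and it lay in sstl-s. Its log2 ratio, LpM over YM, was -0.91 (-1.08 to -0.74) in sstl-s and 0.25 (-0.04 to 0.54) in SSTL-F. HSFC2B had 15 counts in sstl-s and 21 in SSTL-F at LpM, and its log2 ratio was -1.01 (-2.04 to -0.14) in sstl-s and 1.09 (-0.06 to 2.56) in SSTL-F. Across the 47 members, the Pearson correlation of the 2 stage ratios was 0.59, and across all expressed genes it was 0.55. Genes share the libraries and their depth, so these values describe the plot only.

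**Figure D5:**
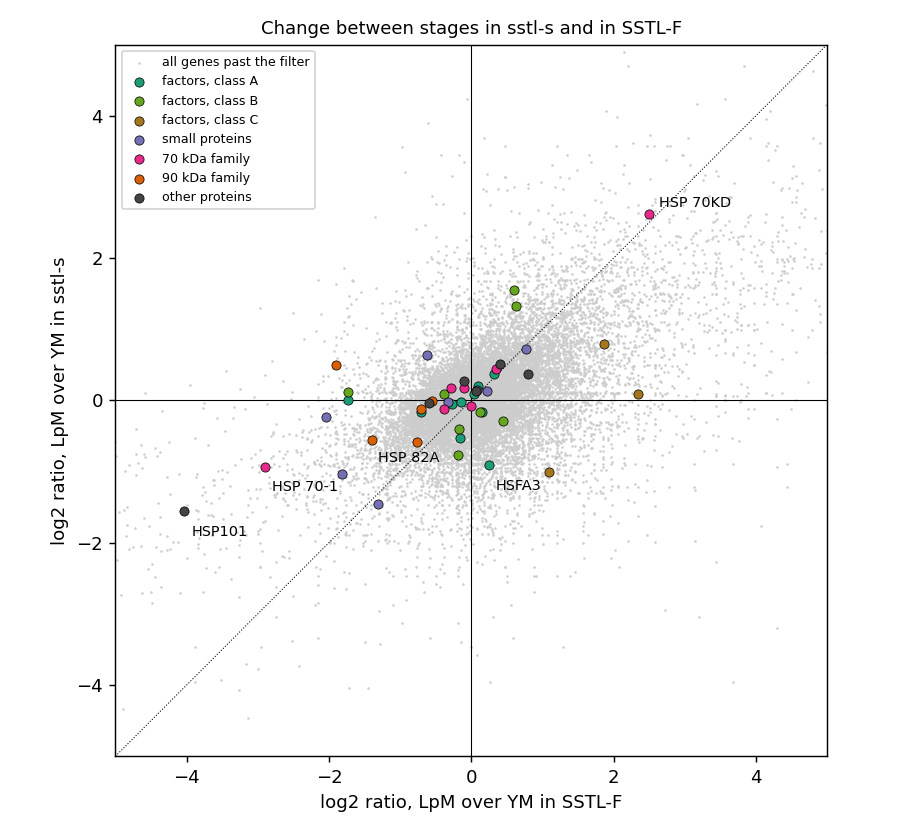
Log2 ratio, LpM over YM, in sstl-s (vertical axis) against SSTL-F (horizontal axis) for all expressed genes (grey) and for the 47 members, coloured by class; the dotted line marks equal change, and 111 genes lie beyond the axis limit of 5. HSP101 lies at -1.55 for sstl-s and -4.04 for SSTL-F, and 8 of the 9 members at least 2-fold lower at LpM in SSTL-F lie above the dotted line.

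Other genes of protein folding were taken from lists of names that exclude the members. Among the chaperones of the endoplasmic reticulum, 3 of the 6 that were expressed passed 2-fold upwards in sstl-s at LpM and none downwards. Of all genes, 4.45% passed upwards and 6.58% downwards. BiP1, the lumenal HSP70, had 828 CPM in sstl-s and 398 CPM in SSTL-F at LpM, and 951 CPM in sstl-s and 730 CPM in SSTL-F at YM. The gene named calreticulin 1, a calcium-binding lectin chaperone, had 1516 CPM in sstl-s and 679 CPM in SSTL-F at LpM, and 1545 CPM in sstl-s and 1477 CPM in SSTL-F at YM. A second calreticulin gene had a log2 ratio of 1.20 at LpM and -0.01 at YM. BiP4 lay on the other side, with 37.1 CPM in sstl-s and 68.5 CPM in SSTL-F at LpM, and 12.5 CPM in sstl-s and 11.6 CPM in SSTL-F at YM. So did BiP5, with 26.9 CPM in sstl-s and 39.1 CPM in SSTL-F at LpM, and 6.07 CPM in sstl-s and 9.07 CPM in SSTL-F at YM.

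J-domain proteins, the partners of HSP70, were the largest list, with 83 of 88 genes expressed. At LpM 3 of them passed 2-fold upwards in sstl-s and 2 downwards, and at YM 8 were higher and 0 lower, with medians of 0.12 at LpM and 0.03 at YM. The shares past 2-fold upwards, 3.61% at LpM and 9.64% at YM, lay near the 4.45% and 8.21% of all genes. Downwards the shares were 2.41% at LpM and 0% at YM, beside 6.58% and 4.24% of all genes. DnaJ domain protein A8 had 90 counts in sstl-s and 0 in SSTL-F at LpM, and 143 in sstl-s and 52 in SSTL-F at YM. Set against a floor of 3 counts in that library, the LpM level of sstl-s was 30.2-fold higher. This value leaves out the counting error of the 90 reads. DnaJ domain protein C10 had 9.27 CPM in sstl-s and 1.77 CPM in SSTL-F at LpM, and 8.20 CPM in sstl-s and 1.03 CPM in SSTL-F at YM, so that it was higher in sstl-s at both stages.

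The 5 chaperonin genes and the 2 polyubiquitin genes held none past 2-fold in any of the 4 comparisons, where 4.24% to 12.0% of all genes passed in a given direction. Of 12 protein disulfide isomerases, 1 passed 2-fold upwards in sstl-s at LpM, beside 4.45% of all genes. It was PROTEIN DISULFIDE ISOMERASE-LIKE 2;3 with 162 CPM in sstl-s and 67.6 CPM in SSTL-F. In sstl-s, 0 of the 12 were at least 2-fold lower at LpM than at YM, beside 4.51% of all genes, and in SSTL-F 3 were, beside 4.95%.

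Finally, 2 genes spelled only "heat-shock" with a hyphen fell outside the choice by name. The HSP70 gene ending in Mediator 37_1 had 74.0 CPM in sstl-s and 36.4 CPM in SSTL-F at LpM, and 103 CPM in sstl-s and 116 CPM in SSTL-F at YM, the same order of libraries as HSP101 and cytosolic HSP70-1. The gene named heat-shock protein 60, a chaperonin type, had 106 CPM in sstl-s and 65.8 CPM in SSTL-F at LpM, and 69.1 CPM in sstl-s and 36.0 CPM in SSTL-F at YM.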

How the data were processed

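Total RNA of whole anthers was extracted with TRIzol and sequenced by the authors as single-end 90-base reads. The authors counted reads per gene in CLC Genomics Workbench 11 with RAP-DB annotation; mapping settings, strand handling and genome build are not given in the sources used here. The deposited counts were used for all ratios, and the deposited RPKM column for levels of different genes and as an alternative. The deposited TPM column, and a column headed CPM that is treated as a score because its sum differs from that of a CPM, were inspected only.

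Libraries were grouped by title. Counts were scaled by TMM factors (edgeR 4.0.16), with a prior count of 1 in log2 ratios and exact Clopper-Pearson intervals. Values in all 4 libraries were given for up to 6 members a direction and comparison (at least 2-fold, 100 counts), the 2 of highest mean RPKM in each class and factors with at least 100 counts; other members named with values were chosen after these were seen. Class words were fitted to the spelling of the names. Members and lists were chosen with earlier results of these data known. Alternatives were library size only, DESeq2 1.42.0 size factors, other prior counts, RPKM, other filters, hyphen-spelled names and the small proteins without the 23.7 kDa one (both added after seeing the data). Ratios and intervals were tested on simulated data. Promoter motifs and sequences were not analysed here. Python 3.11.15 and R 4.3.3 were used.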

Additional observations from a re-analysis of the deposited data

Results flagged for a closer look

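No member met the planned rule, which asked for genotype ratios past 2-fold in opposite directions at the 2 stages. In 4 members the counting intervals of a ratio lay on opposite sides of 0 in the 2 stages or in the 2 genotypes. In each case the difference itself was not tested, since every group held 1 library. The share of all genes with such intervals was not counted. Between genotypes, intervals lay above 0 for 20.8% and below 0 for 22.2% of all genes at LpM. At YM these shares were 17.5% and 24.1%. For HSP101 the log2 ratio of sstl-s over SSTL-F was 1.90 at LpM and -0.59 at YM, a difference of 2.49. For cytosolic HSP70-1 it was 1.71 at LpM and -0.25 at YM, a difference of 1.97. For the HSP70 gene Mediator 37_8 it was 0.23 at LpM and -0.04 at YM, a difference of 0.27, but with library size as the only scaling the YM value was 0.11 and with RPKM 0.14, so its direction at YM depends on the scaling. For Mediator 37_4 the log2 ratio of LpM over YM was 0.18 in sstl-s and -0.10 in SSTL-F, a difference of 0.28.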

How the results depend on the processing

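Leaving out a replicate was not possible with 1 library a group, and no paired analysis was possible because no comparison comes from a test. Of 520 ratios of named members under other settings, 482 stayed within the counting interval and none that was past 2-fold changed direction. Of 95 values for the 19 ratios past 2-fold, 7 fell under 2-fold, 4 of them with RPKM: these were the 18.0-KD CLASS I protein and HSFC2B between stages, and the 17.9 KDA HEAT SHOCK PROTEIN 2 at YM (-0.98 with RPKM). On RPKM, HSP101 moved by over 1.5 times, to 1.08 for sstl-s over SSTL-F at LpM and -2.65 for LpM over YM in SSTL-F.

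Of 64 counts of members under other settings, 50 stayed within 1.5 times the reported count. With library size only, the median at YM was 0.25 and the median over stages in sstl-s was -0.065. With RPKM the median at LpM was 0.46, members lower in sstl-s numbered 1 at LpM and 0 at YM, members higher at LpM than at YM numbered 0 in sstl-s and 1 in SSTL-F, and members lower at LpM in sstl-s numbered 2. A prior count of 5 also gave 2 of the last kind, and no filter gave 7 of them and 8 members higher in sstl-s at YM. With at least 50 counts, members higher in sstl-s numbered 3 at LpM and 2 at YM, members lower in sstl-s at LpM numbered 1, and members higher at LpM than at YM numbered 1 in sstl-s and 2 in SSTL-F, with 5 lower in SSTL-F. With the hyphen-spelled names the median at LpM was 0.44. Fewer genes remain under the stricter filter; other causes were not tested.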
